A study of Mus musculus with 19 samples.

Results

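The comparison set the brains of treated transgenic mice against those of untreated normal mice: 5 arrays of SCA3 transgenic mice given CCI-779 and 4 arrays of wt mice given placebo, 9 of the 19 arrays of the series, chosen by genotype and agent as labelled. Everything measured entered, that is 45037 probe sets. The treated mice received 20 mg/kg of CCI-779 into the peritoneum 3 times a week for 6 weeks, beginning at 5 weeks of age, and the untreated mice received placebo injections as often. All mice were male and the tissue is labelled brain, with no region named. The other 10 arrays, 5 of wt mice given CCI-779 and 5 of SCA3 mice given placebo, are used below only to place the treated transgenic brain. Neither the promoter that drives the transgene nor the line is given in the sources used here. The labels do not state that every array is its own animal. The p-values therefore reflect variation among these samples, part of which may be technical. Genotype and drug both differ between the 2 groups and cannot be told apart in this contrast.

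Spinocerebellar ataxia type 3 arises when the polyglutamine tract lengthens in ataxin-3, a deubiquitinating enzyme, and the expanded protein aggregates in neurons. CCI-779, or temsirolimus, is an ester of rapamycin that inhibits the kinase mTOR, which in turn promotes ribosome production and lipid synthesis and restrains autophagy. Autophagy clears aggregated proteins, which is why mTOR inhibition has been tested in polyglutamine disease.

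Intensities are given as log2 of the deposited values throughout, where 1 unit is a doubling. A gene is read on its brightest probe set with 1 gene symbol, and counts as measured if that probe set averaged at least 4 over the 19 arrays, which gave 10454 genes. Markers of neurons, oligodendrocytes and astrocytes were high on every array: Snap25, a protein of synaptic vesicle fusion, lay at 15.1 to 15.2, Mbp of myelin at 15.2 to 15.5, and the glutamate transporter gene Slc1a2 at 13.56 to 14.03. Alb of liver (2.49 to 2.55) and Ins2 of pancreas (1.94 to 1.99) lay below the median of all probe sets, 3.28. Myh6 of heart spanned that median, at 3.22 to 3.68. In whole tissue, fewer cells of a type and less RNA per cell cannot be told apart.

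The arrays were not alike in quality. Hybridisation spike-ins, RNAs added in fixed amount, averaged 10.5 ± 0.0899 on the SCA3 CCI-779 arrays and 11.1 ± 0.292 on the wt placebo arrays (SD, n = 5 and 4), with no overlap (exact permutation test, two-sided p = 0.0159, the smallest these group sizes can give; 0.0317 adjusted over 6 array measures). The poly-A spike-ins lay at 4.96 ± 0.252 on the SCA3 CCI-779 and 5.50 ± 0.309 on the wt placebo arrays. The difference between the 3′ and 5′ GAPDH probe sets was −0.35 ± 0.0557 on the SCA3 CCI-779 and −0.54 ± 0.0405 on the wt placebo arrays, and both measures had that same exact p and adjusted p. The same difference for actin averaged 1.28 in both groups (exact permutation p = 0.984), but it was 0.964 and 0.881 in SCA3 CCI-779 replicates 2 and 5, 1.44 to 1.55 in replicates 1, 3 and 4, and 1.19 to 1.39 in wt placebo. These 2 arrays also had the lowest poly-A spike-ins of the 19, 4.58 and 4.84. Replicates 2 and 5 stood apart from the rest of their group as well, at −42.4 and −39.2 on the second principal component, where replicates 1, 3 and 4 lay between −2.47 and 1.96. When the spike-in level entered the fit as covariate, 267 probe sets were called in place of 3071. Among the 3071, that fit gave a median absolute difference of 0.41 in place of 0.44 and a median SE of 0.140 in place of 0.0962. The contribution of these quality differences to single results was not tested beyond the fits given here.

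Treated SCA3 brain differed from untreated wt brain at 3071 of 45037 probe sets (6.82%), of which 2079 (4.62%) were higher and 992 (2.2%) lower (limma, Benjamini-Hochberg adjusted p under 0.05). Of the measured genes 1802 (17.2%) were called, 1234 (11.8%) higher and 568 (5.43%) lower, and 7812 probe sets had an unadjusted p under 0.05. Most differences were small. The median called riser lay 0.49 higher and the median called faller 0.34 lower than in wt placebo brain on the log2 scale, and 1319 of the 1802 genes differed by less than 1.5-fold. At 1.5-fold or more, 434 genes (4.15%) were higher and 49 (0.469%) lower. Every SCA3 CCI-779 array lay above every wt placebo array in 1429 genes (13.7%) and below in 667 (6.38%). The direction was uneven in the deposited values, with 67.7% of the called probe sets higher, but a further quantile normalization brought this share to 54.4% and median centring to 73.2%.

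Without SCA3 CCI-779 replicates 2 and 5, 1068 probe sets (2.37%) were higher and 334 (0.742%) lower, and 666 genes (6.37%) were higher and 191 (1.83%) lower. Leaving out single untreated arrays had a similar weight: 1789 probe sets were called without wt placebo replicate 2 (1237 of them higher) and 1999 without wt placebo replicate 4. For the lower probe sets alone, the count of 992 became 576 or 622 when replicate 2 or 5 of SCA3 CCI-779 was left out, 552 or 585 when replicate 2 or 4 of wt placebo was, and 1497 when replicate 1 of wt CCI-779 was, an array whose GAPDH 3′ to 5′ difference of 0.28 was the highest of the 19.

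The overall distance of a brain from untreated wt brain was taken as the root mean square log2 difference over the 10454 genes from the wt placebo mean. It was 0.304, 0.452, 0.247, 0.356 and 0.431 for the 5 SCA3 CCI-779 arrays (mean 0.358 ± 0.0856, SD). wt CCI-779 arrays lay at 0.308 ± 0.0773 and SCA3 placebo arrays at 0.201 ± 0.0229 (n = 5 each). wt placebo arrays, each set against the mean of the other 3, lay at 0.216 ± 0.0180 (n = 4). All 5 treated SCA3 arrays were thus farther from untreated wt brain than all 5 SCA3 placebo arrays (exact permutation test, two-sided p = 0.00794, the smallest 5 against 5 can give, 0.0159 adjusted over 2 comparisons). The spike-ins differed here too, at 10.4 to 10.7 on the SCA3 CCI-779 and 11.2 to 11.6 on the SCA3 placebo arrays, and its part in the distance was not tested. Without replicates 2 and 5 the distances averaged 0.303 ± 0.0544 (n = 3) and the exact p was 0.0357, or 0.0714 adjusted, the smallest values that 3 against 5 arrays can give; all 3 still lay farther than all 5 SCA3 placebo arrays. The distances of SCA3 CCI-779 and wt CCI-779 overlapped (difference 0.0502, exact permutation p = 0.341), and without replicates 2 and 5 the difference was −0.00538 (exact p = 1.0). Leaving out wt CCI-779 replicate 1 in its turn gave a difference of 0.0828 (exact permutation p = 0.127).

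**Figure D1:**
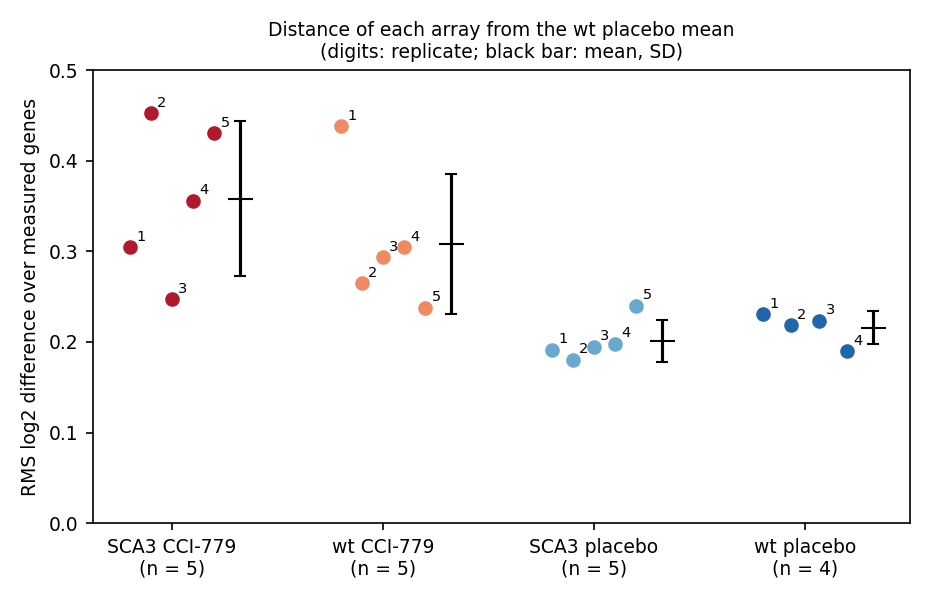
Root mean square log2 difference of each array from the wt placebo mean over 10454 genes (y axis) for the 4 groups (x axis), with points labelled by replicate and black bars for mean and SD; each wt placebo array is set against the mean of the other 3. SCA3 CCI-779 arrays span 0.247 to 0.452 and SCA3 placebo arrays 0.181 to 0.240.

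The other contrasts in the same fit share arrays with this one and are given side by side, not as separate evidence. SCA3 placebo against wt placebo called 1 of 45037 probe sets (0.00222%; 1866 at an unadjusted p under 0.05), and SCA3 CCI-779 against wt CCI-779 also called 1 (3744 unadjusted). The genotype by drug interaction called 0, with 2028 at an unadjusted p under 0.05 by limma, and 1 by its trended and robust variant. SCA3 CCI-779 against SCA3 placebo called 1483 higher and 694 lower probe sets (3.29% and 1.54%), and wt CCI-779 against wt placebo 1311 higher and 273 lower (2.91% and 0.606%). The probe set called under placebo belongs to Trp53inp1, an autophagy-linked p53 target, and averaged only 2.51 over all arrays. These 2 single calls were looked up after the counts were seen, and the one between the treated groups, Ybx3, is described below.

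Atxn3, the mouse gene for ataxin-3, did not pass in this contrast. Its probe set read 8.61, 8.41, 8.38, 8.48 and 8.13 on the SCA3 CCI-779 arrays, against 8.41, 8.32, 8.31 and 8.25 on the wt placebo arrays. The groups overlapped, with a difference of 0.08 ± 0.0986 (SE, adjusted p = 0.870). The same probe set averaged 8.79 ± 0.144 in wt CCI-779 brain, 0.47 above wt placebo (adjusted p = 0.0158), and 8.18 ± 0.176 in SCA3 placebo brain. Whether it also reads the transgene's RNA was not tested, so it checks no label.

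The largest increase was that of Fam163b, a membrane protein gene of little known function. Its probe set read 7.49, 9.32, 7.2, 7.82 and 8.79 on the SCA3 CCI-779 arrays, against 4.46, 5.01, 4.98 and 3.73 on the wt placebo arrays. Every treated array lay above every untreated one, with replicates 2 and 5 highest, and the difference was 3.58 ± 0.478 (12-fold, adjusted p = 0.000416). Without replicates 2 and 5 it was 2.96 (7.78-fold, adjusted p = 0.00343).

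Atn1 encodes atrophin-1, the transcriptional corepressor whose polyglutamine expansion causes dentatorubral-pallidoluysian atrophy. It read 7.75, 9.47, 7.52, 7.97 and 9.57 in SCA3 CCI-779 brain, against 6.02, 6.05, 6.22 and 6.01 in wt placebo brain. The groups did not overlap and replicates 2 and 5 again lay highest, with a difference of 2.38 ± 0.373 (5.2-fold, adjusted p = 0.00126), or 1.67 (3.18-fold) without those 2 arrays. Polr2a, the largest subunit of RNA polymerase II, rose by 2.0 ± 0.341 (3.99-fold, adjusted p = 0.00221). Trim32, a ubiquitin ligase, read 11.25, 12.11, 10.84, 10.90 and 12.13, against 10.02, 9.83, 9.78 and 9.82 in wt placebo brain, and rose by 1.58 (adjusted p = 0.00138). For these genes, too, the 2 highest treated arrays were replicates 2 and 5.

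The other members of the 12 largest increases were Apc2 (2.04), a relative of the Wnt regulator Apc, Zfp385a (2.01), Zfp316 (1.97), Rnf208 (1.96), Mypop (1.88), Tns2 (1.67), a focal adhesion tensin, Cad (1.63), the multifunctional enzyme that starts pyrimidine synthesis, and Casc3 (1.61), a core protein of the exon junction complex. Zfp316 was the only one of the 12 whose groups overlapped. Cad and Zfp316 averaged 3.43 and 3.38 in wt placebo brain, near the median of all probe sets and below the mean of 4 asked of a measured gene, which they reached only through other groups. Their differences are set against signal that may be background. Mypop lost its call without wt placebo replicate 2 (adjusted p = 0.0544) and also without SCA3 CCI-779 replicates 2 and 5 (0.0777), while the other 11 kept theirs in that fit.

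Decreases were smaller. Gpr34, a lysophosphatidylserine receptor of microglia, had the largest: 5.18, 3.96, 5.61, 5.24 and 4.49 on the SCA3 CCI-779 arrays, against 6.16, 6.12, 6.02 and 6.44 on the wt placebo arrays. It fell by 1.29 ± 0.291 (2.45-fold lower, adjusted p = 0.0123) with no overlap, but without replicates 2 and 5 the difference was −0.85 and did not pass (adjusted p = 0.0748). Bdnf, the neurotrophin released with neuronal activity, read 6.30, 5.67, 7.0, 6.49 and 7.06, against 7.37, 7.54, 7.43 and 7.82 in wt placebo brain. It fell by 1.04 (2.05-fold lower, adjusted p = 0.0115), and by 0.94 (0.0143) without those 2 arrays, so here they did not decide the call.

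Tgfa, a ligand of the EGF receptor, was among the steadiest. It read 7.29, 7.28, 7.09, 7.31 and 7.29 in SCA3 CCI-779 brain, against 7.97, 8.08, 8.24 and 8.32 in wt placebo brain, and fell by 0.90 ± 0.104 (adjusted p = 0.000183; −0.92 without replicates 2 and 5). Acaa1a, the peroxisomal thiolase of fatty acid oxidation, fell by 0.92 with no overlap (adjusted p = 0.00423). The remaining members of the 12 largest decreases were Rnf217 (−1.11), Ankrd45 (−1.09), Abhd14a (−0.93), Gpr17 (−0.92), a receptor of differentiating oligodendrocyte precursors, Arhgef33 (−0.92), Ninj1 (−0.85), a protein of plasma membrane rupture, the scaffold gene Grasp (−0.81) and the inducible heat shock protein gene Hspa1b (−0.81). Ankrd45 and Arhgef33 overlapped between the groups. Without replicates 2 and 5, 5 of the 12 still passed, namely Bdnf, Abhd14a, Acaa1a, Tgfa and Ninj1. Single arrays also ended calls: any of 5 for Ankrd45 (adjusted p up to 0.0682) and for Gpr17 (up to 0.0927), replicates 2 and 5 of SCA3 CCI-779 and wt placebo replicates 3 and 4 among them for both, wt placebo replicate 4 for Arhgef33 (0.0609) and wt placebo replicate 3 for Grasp (0.0618).

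**Figure D2:**
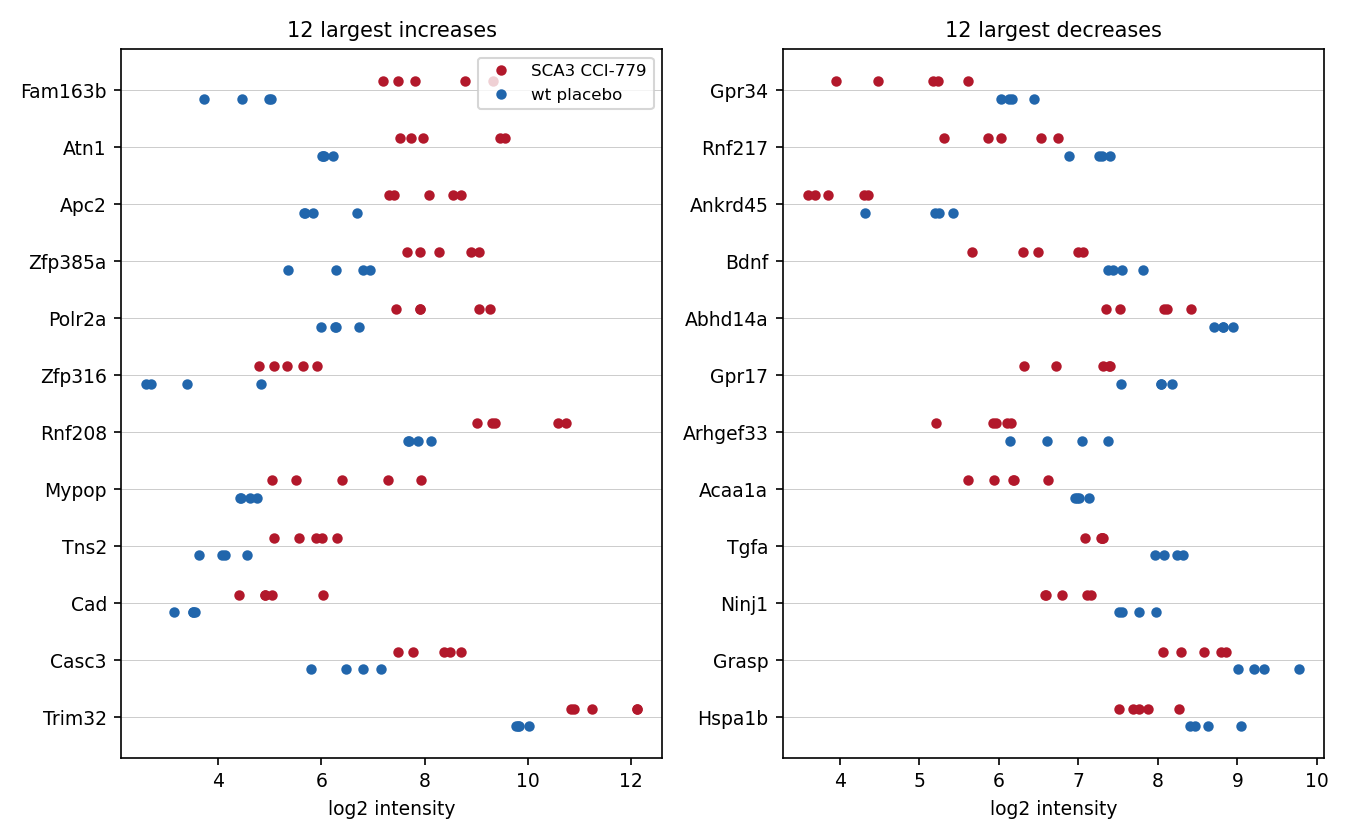
log2 intensity (x axis) on each of the 5 SCA3 CCI-779 and 4 wt placebo arrays for the 12 measured genes with the largest called increases (left) and the 12 with the largest called decreases (right). The groups are apart in 21 of the 24 genes; Zfp316, Ankrd45 and Arhgef33 overlap.

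The same genes can be set beside the other groups, and none of the 24 passed the test between SCA3 CCI-779 and wt CCI-779 brain. Fam163b lay 3.58 above wt placebo in SCA3 CCI-779 brain, 2.61 in wt CCI-779 brain (adjusted p = 0.00764) and 0.59 in SCA3 placebo brain (0.657). For Atn1 the 3 differences were 2.38, 1.47 and −0.02. Hspa1b lay at −0.81 in SCA3 CCI-779 brain, −0.12 in wt CCI-779 brain and −0.12 in SCA3 placebo brain, and the difference between the treated groups of −0.69 did not pass (adjusted p = 0.181).

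**Figure D3:**
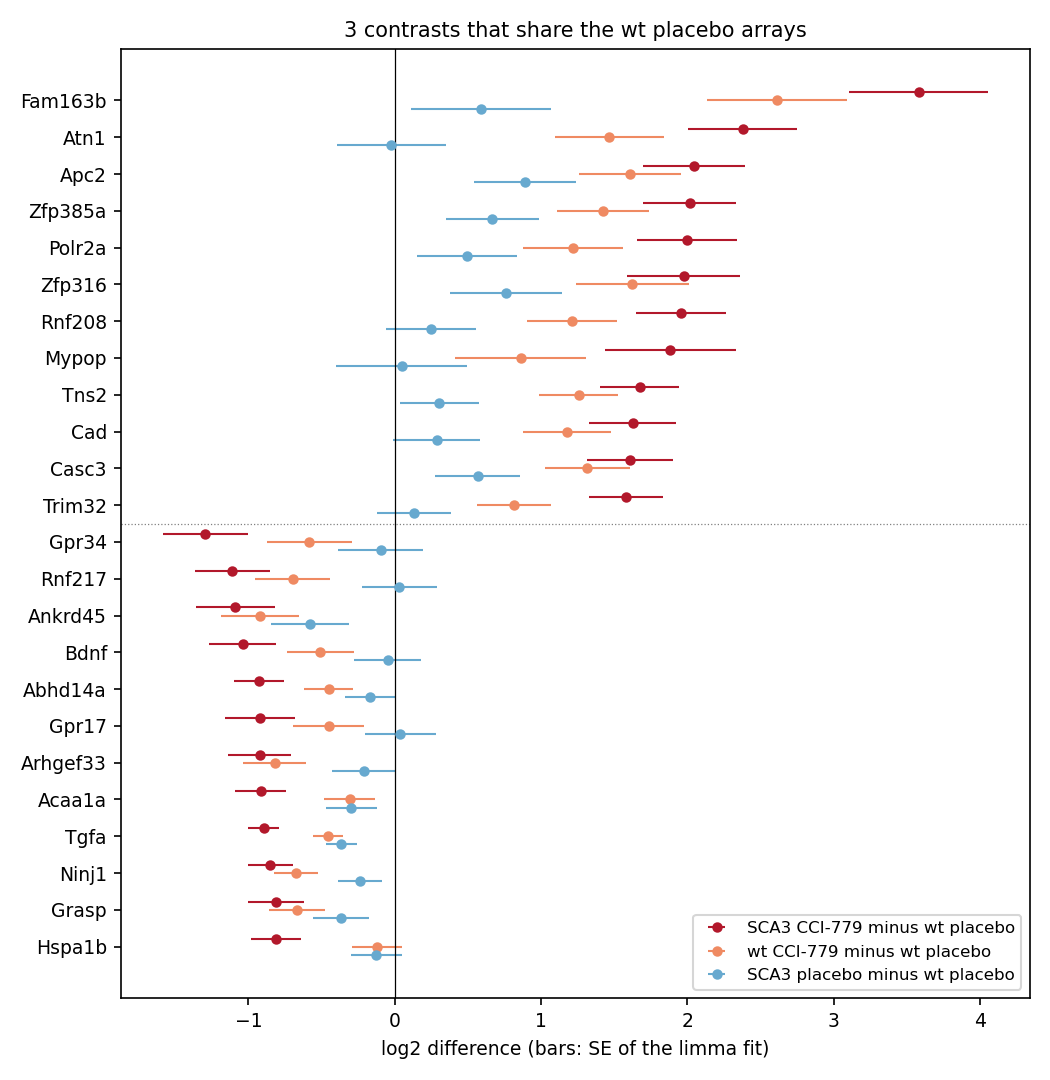
log2 difference from wt placebo (x axis, bars for SE) in SCA3 CCI-779, wt CCI-779 and SCA3 placebo brain for the 24 genes with the largest called increases and decreases. The 3 contrasts share the 4 wt placebo arrays; for Fam163b they are 3.58, 2.61 and 0.59.

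Ybx3, a cold-shock domain protein that binds DNA and mRNA, was the 1 gene called between the 2 treated genotypes. It read 10.09, 9.99, 10.09, 10.04 and 10.01 on the SCA3 CCI-779 arrays, against 10.72, 10.80, 10.49 and 10.90 on the wt placebo arrays, and averaged 10.5 ± 0.0573 in wt CCI-779 and 10.7 ± 0.0858 in SCA3 placebo brain. All 5 treated SCA3 arrays lay below all 14 others. It fell by 0.69 ± 0.0638 against wt placebo (adjusted p = 5.46e-05) and by 0.50 against wt CCI-779 (0.0153), and a dimmer probe set of the gene read 0.13 higher than wt placebo (adjusted p = 0.870). The call between the treated genotypes depended on the setting: 0 probe sets were called in that contrast with the spike-in covariate, with median centring and without replicates 2 and 5.

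Many presynaptic genes were higher. Of 33 measured genes of synaptic vesicles and release, 14 rose and 0 fell, against 11.8% and 5.43% of all measured genes, and the median difference was 0.30 against 0.02 over all genes. Without replicates 2 and 5 these numbers were 10, 0 and 0.21, and with the spike-in covariate 6, 0 and 0.25. On the mean of each gene's probe sets the median was 0.17. The mean over the 33 genes was 11.68 to 11.82 on the SCA3 CCI-779 arrays and 11.40 to 11.52 on the wt placebo arrays.

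Vamp2, the vesicle SNARE of synaptic release, read 12.89, 12.69, 12.69, 12.73 and 12.75 in SCA3 CCI-779 brain, against 11.65, 11.40, 11.59 and 11.31 in wt placebo brain. The gap between the groups was far wider than either spread, at 1.26 ± 0.129 (2.40-fold, adjusted p = 6.84e-05), and was 1.28 without replicates 2 and 5. Syn1, a synapsin that tethers vesicles, rose by 0.55 (1.47-fold, adjusted p = 0.000207), and Syn2, its relative, by 0.58 (0.000197). Syp, the vesicle membrane protein synaptophysin, rose by 1.01 and Bsn, the active zone scaffold bassoon, by 0.94. Cplx2, a complexin that binds the SNARE complex, disagreed between probe sets. The brightest rose by 0.84 (adjusted p = 0.000220) and the next by 0.71 (7.37e-05), while another fell by 0.69 (0.0262).

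Among 22 measured postsynaptic scaffold and adhesion genes 10 rose and 4 fell, with a median of 0.22 (63.6% called, against 17.2% of all measured genes). Without replicates 2 and 5, 8 rose and 1 fell, where 6.37% of all measured genes rose and 1.83% fell. Nlgn2, the neuroligin of inhibitory synapses, read 10.79, 11.32, 10.40, 10.91 and 11.10 in SCA3 CCI-779 brain, against 9.46, 9.16, 9.51 and 9.28 in wt placebo brain, and rose by 1.55 (2.93-fold, adjusted p = 0.000635). Dlgap3 (1.34), Dlg2 (1.02) and Dlgap4 (0.76), scaffolds of the postsynaptic density, rose without overlap. A dimmer probe set of Dlg2 lay 0.15 lower (adjusted p = 0.870). The 4 that fell were Cnksr2 (−0.53), Lrrtm1 (−0.51), Homer1 (−0.41) and Nrxn3 (−0.22), of which Nrxn3 passed without replicates 2 and 5 (adjusted p = 0.0358). The next probe set of Nrxn3 rose by 0.63 (0.0133), so its direction differs between probe sets, and that of Lrrtm1 lay 0.03 higher without passing (0.905).

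Glutamate and GABA receptor genes had 6 rises and 1 fall in 26 (26.9% called, against 17.2% of all measured genes). The median of 0.01 became −0.03 with a further quantile normalization. On the mean of each gene's probe sets, adjusted over those means alone, 5 rose and 5 fell, at a median of −0.09. Grik5, a kainate receptor subunit, rose by 1.28 (adjusted p = 0.00114) and Gria1, an AMPA receptor subunit, by 0.59 (0.00194). Gabrg3, a GABA-A receptor subunit, fell by 0.39 (0.00606), where SCA3 placebo brain lay 0.46 below wt placebo without passing. Inhibitory neuron genes Slc32a1 (0.41), the vesicular GABA transporter, Gad2 (0.35) and Gad1 (0.27), the enzymes of GABA synthesis, rose. They were the 3 calls among 15 such genes (20%, against 17.2% of all measured genes). A dimmer probe set of Gad2 lay 1.06 lower (adjusted p = 0.289). Gad1 lost its call without wt placebo replicate 2 (adjusted p = 0.0515).

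**Figure D4:**
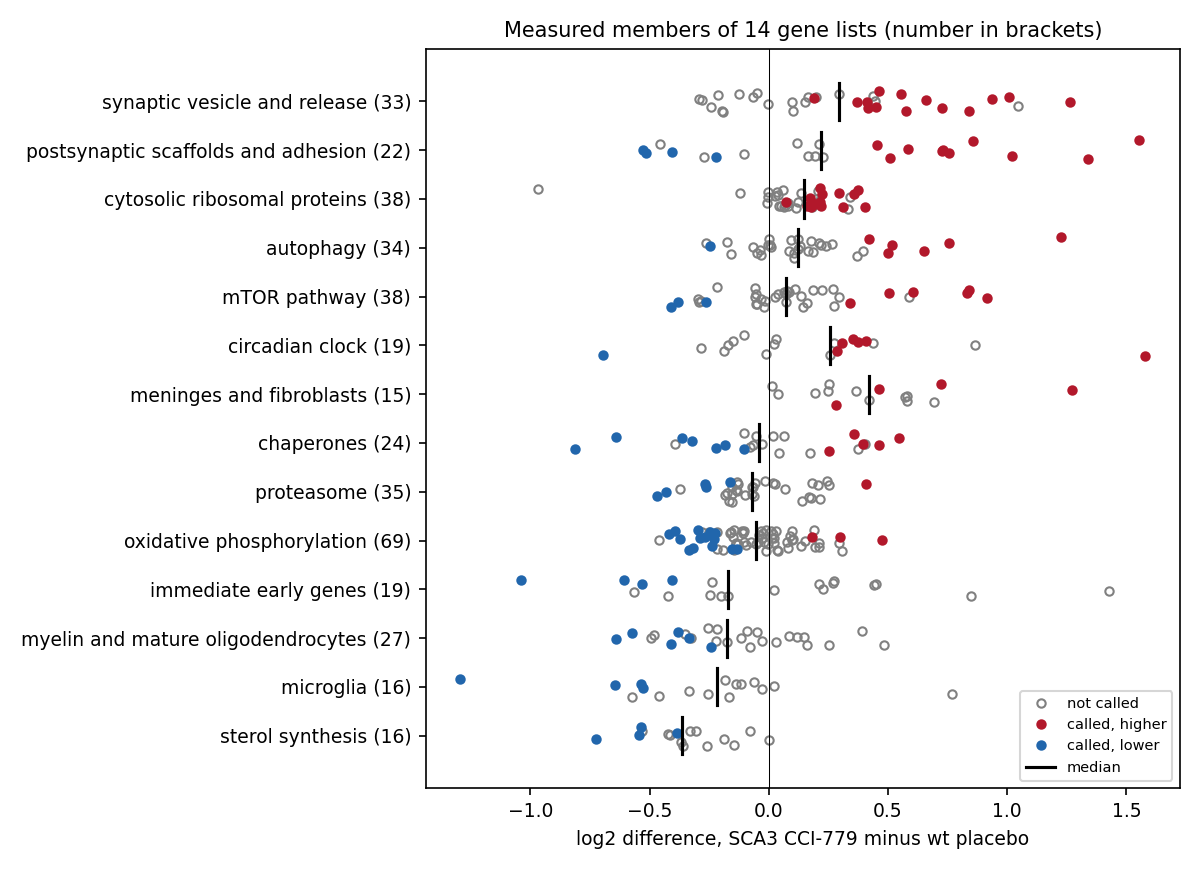
log2 difference between SCA3 CCI-779 and wt placebo brain (x axis) for the measured members of 14 gene lists (y axis), 1 point a gene, filled where called, with a black line at each median. Synaptic vesicle genes lie mostly right of 0 (median 0.30) and sterol synthesis genes mostly left (median −0.36).

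Enzymes of sterol synthesis lay lower. Of 16 measured genes 15 had a negative difference, 4 fell and 0 rose (25% called, against 17.2% of all measured genes), and the median was −0.36. The mean over the 16 was 8.46 to 8.63 on the SCA3 CCI-779 arrays and 8.68 to 9.20 on the wt placebo arrays, so the groups did not overlap. In SCA3 placebo brain the median difference from wt placebo was 0.18, and in wt CCI-779 brain −0.23.

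Hsd17b7, a ketosteroid reductase of the pathway, fell by 0.54 ± 0.117 (adjusted p = 0.0107) and by 0.66 without replicates 2 and 5 (0.0112), the 1 call left in that fit. Fdps, farnesyl diphosphate synthase, read 8.83, 8.76, 8.94, 9.22 and 8.83 in SCA3 CCI-779 brain, against 9.76, 9.52, 9.31 and 9.98 in wt placebo brain. Its fall of 0.73 (adjusted p = 0.0260) was lost on leaving out any of 6 single arrays (up to 0.0980): SCA3 CCI-779 replicates 1, 2 and 5 and wt placebo replicates 1, 2 and 4. Nsdhl, a sterol dehydrogenase, fell by 0.54 and lost its call without wt placebo replicate 4 (adjusted p = 0.0546), and Tm7sf2, a sterol reductase that fell by 0.39, lost it in 16 of 19 single omissions. With the spike-in covariate 0 of the 16 genes passed, at a median of −0.43. Scd1, the stearoyl-CoA desaturase, fell by 0.49 (adjusted p = 0.00728; −0.48 and 0.0304 without replicates 2 and 5). Among fatty acid genes Elovl4 (0.48), Fads1 (0.47) and Fads2 (0.35), an elongase and 2 desaturases, rose, Fads1 not without wt placebo replicate 2 (adjusted p = 0.0625). The mean of the probe sets of Fads2 gave −0.04.

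Of 27 measured genes of myelin and mature oligodendrocytes 6 fell and 0 rose (22.2% called, against 17.2% of all measured genes). The median was −0.18, or −0.09 on the mean of each gene's probe sets, and 4 fell without replicates 2 and 5. Cryab, the small heat shock protein alpha-B crystallin, read 11.17, 11.35, 11.45, 11.18 and 11.23 in SCA3 CCI-779 brain, against 11.77, 11.90, 11.91 and 12.08 in wt placebo brain. It fell by 0.64 ± 0.0974 (adjusted p = 0.00103) with no overlap, and by 0.65 without replicates 2 and 5. Qdpr, dihydropteridine reductase, fell by 0.33 (adjusted p = 0.000515) and Ugt8a, the enzyme of galactocerebroside synthesis, by 0.57 (0.0191). A dimmer probe set of Qdpr lay 0.15 higher (0.503). Cnp and Ndrg1 did not read alike on their probe sets either. The brightest of Cnp, a myelin phosphodiesterase, fell by 0.41 (0.0130; 0.0518 without wt placebo replicate 4) while another lay 0.59 higher (0.0548), and the brightest of Ndrg1 fell by 0.38 while another rose by 0.30 (0.0317).

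Microglial genes had 4 falls and 0 rises in 16 (25% called, against 17.2% of all measured genes, and 5.43% lower), with a median of −0.22. Without replicates 2 and 5 there was 1 fall. Csf1r, the receptor for the survival factors of microglia, fell by 0.53 (adjusted p = 0.00504), the complement gene C1qb by 0.53 (0.00594) and the lysosomal membrane gene Laptm5 by 0.65 (0.0109), beside Gpr34. The mean over the 16 genes was 7.49 to 7.86 on the SCA3 CCI-779 arrays and 7.89 to 8.05 on the wt placebo arrays. The median difference was −0.31 in wt CCI-779 brain and 0.01 in SCA3 placebo brain. The 2 dimmer probe sets of Csf1r lay 0.18 and 0.31 higher without passing. With the spike-in covariate no microglial or myelin gene passed, at medians of −0.40 and −0.21.

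Other cell types gave mixed or few calls. Meningeal and fibroblast genes had 4 rises in 15 (26.7% called, against 17.2% of all measured genes) and a median of 0.42. The 4 were Gjb2 (1.27), Aldh1a2 (0.72), Col1a1 (0.46) and Ptgds (0.28). The call of Gjb2 was lost on leaving out SCA3 CCI-779 replicate 2 or wt placebo replicate 2 or 3 (adjusted p up to 0.0593). Col1a1 lost its call in 5 single omissions (up to 0.0957) and Ptgds in 6 (up to 0.128), SCA3 CCI-779 replicates 2 and 5 and wt placebo replicate 2 among them for both. Aldh1a2, the retinoic acid synthesis enzyme of the meninges, read 6.56, 6.52, 6.89, 6.83 and 6.74 in SCA3 CCI-779 brain, against 6.10, 5.73, 5.87 and 6.23 in wt placebo brain. It was the 1 meningeal gene that passed without replicates 2 and 5 (adjusted p = 0.0102). The mean over the 15 was 7.96 to 8.15 on the SCA3 CCI-779 arrays and 7.53 to 7.80 on the wt placebo arrays, and its part in the other differences was not tested. Choroid plexus (9 genes), blood (6) and monoamine neuron genes (8) gave 0 calls by limma. Endothelial genes had 1 fall and 1 rise in 13 (15.4% called, against 17.2% of all measured genes). Itm2a fell by 0.62 ± 0.0654 (adjusted p = 9.80e-05) and the amino acid transporter Slc7a5 rose by 0.98 (0.00659). The counts were 1 fall and 0 rises both without replicates 2 and 5 and with the spike-in covariate.

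Genes of the drug's own pathway showed some large single increases. Of 34 autophagy genes 6 rose and 1 fell (20.6% called, median 0.12), and of 38 mTOR pathway genes 6 rose and 3 fell (23.7% called, median 0.07), shares not far above the 17.2% of all measured genes. Without replicates 2 and 5 the counts were 2 and 0, and 4 and 0. Ulk1, the kinase that starts autophagy and is inhibited by mTOR, read 10.18, 10.22, 9.53, 9.95 and 10.15 in SCA3 CCI-779 brain, against 9.11, 8.44, 8.64 and 8.94 in wt placebo brain. It rose by 1.23 ± 0.142 (2.34-fold, adjusted p = 0.000183) with no overlap, and another of its probe sets also rose. wt CCI-779 brain lay 1.0 and SCA3 placebo brain 0.40 above wt placebo at this gene. Map1lc3b, whose protein coats autophagosomes, fell by 0.25 and lost its call without wt placebo replicate 4 (adjusted p = 0.0525).

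Akt1, the kinase upstream of mTOR, read 10.13, 10.67, 10.09, 10.28 and 10.62, against 9.65, 9.42, 9.44 and 9.56 in wt placebo brain, and rose by 0.84 (adjusted p = 0.000823). Igf1r (0.83), the receptor for insulin-like growth factor, Pik3r1 (0.60), the regulatory subunit of PI3-kinase, and Tsc2 (0.50), an inhibitor of mTOR, rose as well. Mtor itself rose by 0.34 (adjusted p = 0.0283) and did not pass without replicates 2 and 5 (0.0709). Fkbp1a, which encodes the immunophilin that binds rapamycin, fell by 0.26 (0.0338; 0.247 without those arrays).

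Of 38 ribosomal protein genes 14 rose by small steps and 0 fell (36.8% called, against 17.2% of all measured genes). The 24 others did not pass, and the median was 0.15. Rpl19 read 13.26, 13.25, 13.17, 13.26 and 13.18 in SCA3 CCI-779 brain, against 13.002, 12.77, 12.89 and 12.73 in wt placebo brain, and rose by 0.37 (adjusted p = 0.00211). The count was 5 without replicates 2 and 5, 4 with the 9 arrays alone, 9 with a further quantile normalization, 6 with median centring and 1 with the spike-in covariate, at medians of 0.13 to 0.16.

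Genes of oxidative phosphorylation had 14 falls and 3 rises in 69 (24.6% called, against 17.2% of all measured genes) and a median of −0.05. Ndufa12, a subunit of complex I, read 12.87, 12.91, 12.90, 12.89 and 12.88 in SCA3 CCI-779 brain, against 13.33, 13.29, 13.22 and 13.38 in wt placebo brain. With so narrow a spread the fall of 0.42 ± 0.0346 had an adjusted p of 2.21e-05, and its next probe set fell by 0.41, although a dimmer one lay 0.06 higher (0.870). Cox5b of cytochrome oxidase fell by 0.37 (0.000338), and 2 of its other probe sets fell too, while Uqcrc1 of complex III rose by 0.47 (0.000924). Without replicates 2 and 5, 5 fell and 1 rose.

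The systems that handle misfolded protein did not move as one. Of 35 proteasome genes 5 fell and 1 rose (median −0.07), a called share of 17.1%, near the 17.2% of all measured genes, Psma5 by 0.43 and Psmc2 by 0.27 among them, and 3 fell without replicates 2 and 5. Of 24 chaperone genes 7 fell and 5 rose (50% called). The counts were 1 and 1 without replicates 2 and 5, where 8.2% of all measured genes were called. They were 0 and 0 with the spike-in covariate. Hspa1b, inducible Hsp70, read 8.27, 7.88, 7.76, 7.52 and 7.69 in SCA3 CCI-779 brain, against 8.64, 8.46, 9.04 and 8.40 in wt placebo brain, with no overlap (adjusted p = 0.00883; 0.0568 without replicates 2 and 5). Dnajb1, its cochaperone, fell by 0.32 (0.00634), and Dnajc5, the vesicle cochaperone, rose by 0.39 (0.00271). Dimmer probe sets of Dnajc5 lay from 0.44 lower to 0.25 higher, none called. Endoplasmic reticulum stress and ATF4 genes had 3 falls and 2 rises in 26 (19.2% called, near the 17.2% of all measured genes). Canx, calnexin, fell by 0.36 (0.00117) and Hspa5, BiP, by 0.44 (0.00565), both also without replicates 2 and 5.

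Of 51 deubiquitinase genes 6 rose and 3 fell, a share (17.6%) near that of all genes. Zranb1, a deubiquitinase of the OTU family, read 9.25, 9.44, 9.33, 9.40 and 9.37 in SCA3 CCI-779 brain, against 8.64, 8.02, 7.76 and 7.95 in wt placebo brain, and rose by 1.27 (adjusted p = 0.000172). Of 8 polyglutamine disease genes 3 rose (37.5% called, against 17.2% of all measured genes). Htt, which encodes huntingtin (0.70, adjusted p = 0.00214), and Cacna1a, the gene of spinocerebellar ataxia type 6 (0.65, 0.00413), rose beside Atn1, all 3 also without replicates 2 and 5. The 2 dimmer probe sets of Htt lay 0.05 higher (0.933) and 0.02 lower (0.910). On the mean of each gene's probe sets 2 of the 8 rose. RNA polymerase II and Mediator genes had 6 rises and 1 fall in 48 (14.6% called, against 17.2% of all measured genes). Supt6 (1.35), an elongation factor, Med16 (0.67) and Med15 (0.63) of the Mediator complex rose beside Polr2a. A dimmer probe set of Med15 lay 0.40 lower (adjusted p = 0.384). Antioxidant genes had 4 rises and 3 falls in 24 (29.2% called, against 17.2% of all measured genes). Gsr (0.76), glutathione reductase, and Gclm (0.41), of glutathione synthesis, rose while Sod1 fell by 0.36. Dimmer probe sets of Sod1 lay 0.10 higher (adjusted p = 0.460) and 0.03 lower (0.924).

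Immediate early genes had 4 falls and 0 rises in 19 (21.1% called, against 17.2% of all measured genes, and 5.43% lower), with a median of −0.17. The 4 were Bdnf, Nr4a2 (−0.61), Egr3 (−0.53) and Homer1 (−0.41), of which Bdnf and Nr4a2 passed without replicates 2 and 5. Homer1 lost its call in 4 single omissions (adjusted p up to 0.0743) and Egr3 in 6 (up to 0.112), those of SCA3 CCI-779 replicates 2 and 5 and of wt placebo replicates 2 and 3 among them. Nr4a2, a nuclear receptor induced by activity, had 2 dimmer probe sets 0.22 and 0.25 higher, neither called.

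Clock genes had 6 rises and 1 fall in 19 (36.8% called, against 17.2% of all measured genes). The median of 0.26 became 0.05 on the mean of each gene's probe sets. With the spike-in covariate none of the 19 passed and the median was −0.04. Clock proteins act on short DNA motifs: CLOCK and BMAL1 bind the E-box, and the products of Hlf, Tef and Dbp bind the D-box. The promoters of 3 of the genes that rose are shown because each holds a motif of the clock or of cAMP signalling, in capitals, taken from RefSeq (GRCm38.p6), each 300 bases from upstream of the gene's start to just past it, on the gene's strand.
Per1 (chr11:69098699-69098998, plus strand, E-box): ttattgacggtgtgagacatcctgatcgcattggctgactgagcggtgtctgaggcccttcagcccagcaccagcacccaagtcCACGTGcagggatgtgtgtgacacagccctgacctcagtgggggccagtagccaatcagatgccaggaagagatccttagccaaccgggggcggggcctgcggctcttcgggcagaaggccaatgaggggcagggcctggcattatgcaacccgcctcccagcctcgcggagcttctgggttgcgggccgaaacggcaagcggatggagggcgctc
Per3 (chr4:151044616-151044915, minus strand, D-box): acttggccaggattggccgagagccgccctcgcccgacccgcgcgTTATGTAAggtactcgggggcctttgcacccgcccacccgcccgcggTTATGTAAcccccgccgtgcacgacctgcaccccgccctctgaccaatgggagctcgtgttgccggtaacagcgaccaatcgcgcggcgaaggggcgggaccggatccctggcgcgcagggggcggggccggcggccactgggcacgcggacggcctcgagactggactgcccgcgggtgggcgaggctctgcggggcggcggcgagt
Hlf (chr11:90390868-90391167, minus strand, CRE): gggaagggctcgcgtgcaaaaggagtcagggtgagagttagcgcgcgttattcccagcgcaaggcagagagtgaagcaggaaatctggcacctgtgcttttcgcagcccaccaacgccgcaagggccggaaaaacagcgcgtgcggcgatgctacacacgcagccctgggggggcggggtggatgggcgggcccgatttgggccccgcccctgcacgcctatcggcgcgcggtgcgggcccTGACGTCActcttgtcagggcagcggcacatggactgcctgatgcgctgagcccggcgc

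The motifs searched on both strands were the E-box CACGTG, which 7.15% of 32851 promoters of this length hold, the D-box TTATGTAA (0.938%) and the cAMP response element TGACGTCA (1.79%), and none of the 3 overlaps another here. Of 21 clock genes 18 had a promoter in the table, and 5 of them held an E-box, 1 a D-box and 1 the cAMP element. A match describes these letters only. The E-box also occurred in both promoters of Tef, another D-box factor, which rose by 0.37 (adjusted p = 0.0312, and 0.190 without replicates 2 and 5) while its next probe set lay 0.71 lower (0.870). Cry1 and Ciart, which did not pass, held it too, as did Bhlhe41, which averaged under 4 and was not measured. A second promoter of Per1 held none of the 3 motifs.

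Per1, a negative arm gene of the clock that is also induced by activity and glucocorticoids, read 6.58, 7.94, 6.12, 7.84 and 8.21 in SCA3 CCI-779 brain, against 6.14, 5.08, 5.91 and 5.90 in wt placebo brain. Replicate 3 of the treated group lay just under the highest untreated array, so the groups overlapped. The rise of 1.58 ± 0.375 (adjusted p = 0.0171) was lost without wt placebo replicate 2 (0.0723) and without replicates 2 and 5 (0.139). Per3, its paralog, was steadier: 8.08, 8.05, 8.12, 8.19 and 8.20, against 7.72, 7.63, 7.76 and 7.77 in wt placebo brain. It rose by 0.41 (adjusted p = 0.00136; 0.010 without replicates 2 and 5). Hlf, a D-box binding factor, rose by 0.35 (0.0121), with another probe set 0.25 lower (0.139), and Cry2, a repressor of the clock, by 0.31 (0.00508). Csnk1d, the kinase of the PER proteins, fell by 0.70 on its brightest probe set (0.00869) and rose by 0.60 on another (0.00502).

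Such disagreement between probe sets was frequent among the lower genes. Of 412 called fallers with a further measured probe set, the next brightest had the same sign in 223 (54.1%). It was called lower in 39 and called higher in 54, with a median of −0.03 against −0.34 on the brightest. Of 596 such risers 395 (66.3%) agreed in sign, with 102 called higher and 11 called lower, at medians of 0.12 and 0.45. Among the genes named by rule, Cplx2, Csnk1d, Grn, Hnrnpa2b1, Ndrg1 and Srsf2 had a probe set called in the opposite direction to the brightest, and 40 had an opposite one that did not pass. Nrxn3, named outside the rule, also had one called in the opposite direction. Grn, which encodes progranulin, fell by 0.41 on its brightest probe set and by 0.36 on the next (adjusted p = 0.0232). It rose by 0.53 on another (adjusted p = 0.000676). The falls and rises given by gene are those of the brightest probe set.

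**Figure D5:**
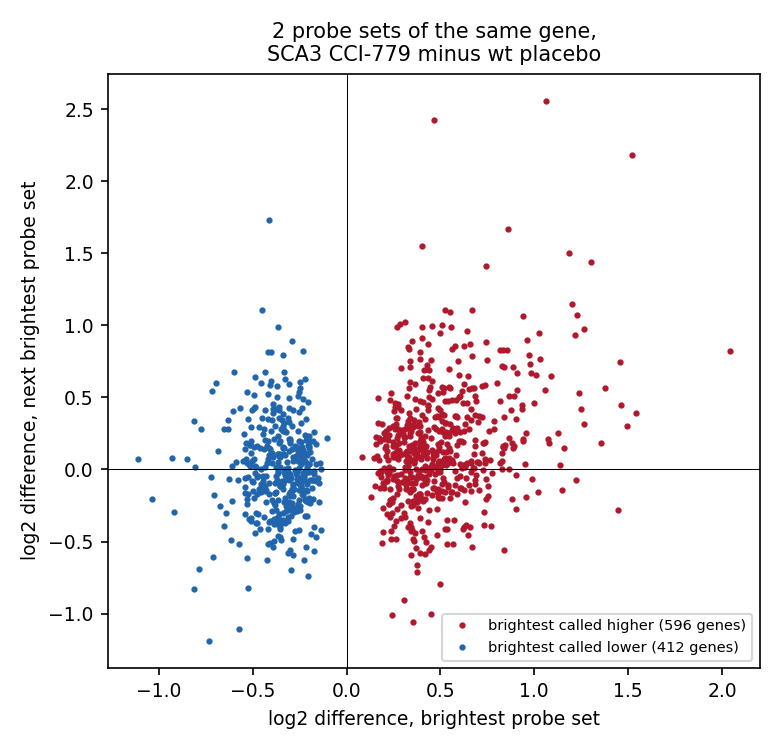
log2 difference between SCA3 CCI-779 and wt placebo brain on a gene's brightest (x axis) and next brightest measured probe set (y axis) for 596 genes called higher and 412 called lower on the brightest. The points of the lower genes centre near 0 on the y axis (median −0.03).

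Of the 149 genes named by rule, 145 passed and 128 of those had groups that did not overlap, which the choice of genes by size and p largely fixed. Without SCA3 CCI-779 replicates 2 and 5, 91 of the 145 passed, and 106 passed on leaving out each of the 19 arrays in turn. With the spike-in covariate 120 of the 145 no longer passed. Those that still did include Fam163b, Tgfa, Vamp2, Syn1, Syn2, Dlg2, Nlgn2, Ulk1, Zranb1, Htt, Itm2a, Ndufa12, Cox5b, Gclm and Ybx3. The bright genes Basp1, Hnrnpk and Zbtb18, chosen for a small difference, differed by less than 0.01 on the brightest probe set, which is the value they were chosen on. Another probe set of Hnrnpk rose by 0.17 (adjusted p = 0.0360). Arglu1, a splicing coactivator, lay 0.14 higher on its brightest probe set (adjusted p = 0.417) and 0.97 lower on the other (0.00316). On that other probe set SCA3 placebo brain lay 1.21 below wt placebo (0.0803) and wt CCI-779 brain 0.91 below it (0.00971). The brightest probe set of Slc8a1, the sodium-calcium exchanger gene, lay 0.21 lower (0.357) and a dimmer one 0.33 lower (0.116).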

How the data were processed

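Brain RNA of 19 samples in 4 groups was measured on Affymetrix mouse genome arrays, 1 array a sample. The authors deposited linear intensities for each probe set, which GCRMA produced, per the submitters' processing notes, in a version not given in the sources used. All columns were matched to samples through their labels. Intensities were taken to log2 with no pseudocount. Of 45101 probe sets, 64 controls were kept out and 45037 tested without a filter, in 1 fit of 4 group means (limma 3.58.1, R 4.3.3; 15 residual degrees of freedom, prior 1.04), with Benjamini-Hochberg adjustment over all probe sets and a threshold of 0.05. Every adjusted p of a gene is limma's, and SE is that of its moderated test; SD is between arrays. For arrays, the number of samples limits the precision. For array measures the groups were compared with an exact permutation test, two-sided. The fit was tested on simulated data.

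Platform annotation gave 34945 probe sets 1 gene symbol, 932 several and 9160 none. A gene was represented by its brightest probe set with 1 symbol, and measured where that averaged at least 4. Named genes were Atxn3, the 12 largest called rises and falls, up to 4 called members of each list with the smallest p, up to 5 called genes with the smallest p in each of the other genotype contrasts, and 3 steady bright genes. Syp, Bsn, Ugt8a, Lrrtm1, Nrxn3, Cnksr2, Mtor, Fkbp1a, Tef and the probe set of Trp53inp1 fall outside that rule and were chosen after their values were seen, as were the extra probe sets; single omissions were not listed for them. The comparison, lists and alternatives were chosen with earlier results of these data known. No list was tested. Alternatives covered filters, the arrays fitted, the variance model, array weights, normalization, replicate number, thresholds, quality covariates, left-out arrays and averaging over the probe sets of a gene. Probe-level files and a genome were not used here; promoters come from a RefSeq table.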

Additional observations from a re-analysis of the deposited data

Results flagged for a closer look

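Dixon's criterion was applied to 312 groups of arrays, over the named genes and the array measures. In 12 of them (3.85%), all of named genes, 1 array lay far from the others, which chance meets in about 1 in 20 groups. In SCA3 CCI-779 brain these were Arhgef33 at 5.204 in replicate 2 (5.93 to 6.15 in the others), Tgfa at 7.09 in replicate 3 (7.28 to 7.31), Scap at 10.05 in replicate 5 (10.17 to 10.19) and Slc32a1 at 10.60 in replicate 4 (10.29 to 10.32), all in log2 intensity. In wt placebo brain Hlf lay at 10.57 (others 10.74 to 10.75), Rplp2 at 13.83 (13.61 to 13.64) and Med15 at 7.99 (7.64 to 7.67) in replicate 1, and Cry2 at 9.88 (10.10 to 10.14) in replicate 2. In wt placebo replicate 3 Atn1 lay at 6.22 (6.01 to 6.05) and Psmc2 at 12.18 (12.28 to 12.29). In wt placebo replicate 4 Igf1r lay at 7.80 (8.46 to 8.52) and Cad at 3.15 (3.51 to 3.56).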

How the results depend on the processing

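Against 3071 called probe sets (2079 higher, 992 lower), the count moved most with array weights estimated from the data, to 22134 (18372 higher, 3762 lower), and with the spike-in covariate, to 267 (178 higher, 89 lower); the cause was not tested. It was 1772 (1167 higher, 605 lower) with the 9 arrays alone, which leaves fewer arrays to estimate the spread, 1402 (1068 and 334) without SCA3 CCI-779 replicates 2 and 5, 1262 (938 and 324) at an adjusted p under 0.01 and 920 (771 and 149) at 1.5-fold. Lower probe sets numbered 1501 with a further quantile normalization and 645 with median centring. It was 2288 with the replicate block; deviations of same-numbered arrays correlated at −0.31 to 0.07, so the numbers were not taken to pair the samples. Leaving out single arrays gave 1789 to 3974 calls, 1237 to 2477 higher and 552 to 1497 lower. SCA3 placebo against wt placebo, 1 call, gave 2 with either filter, the trended variance, the GAPDH covariate or without replicates 2 and 5, 19 with weights, 0 at 1.5-fold and 1 to 14 over single omissions. SCA3 CCI-779 against wt CCI-779, 1 call, gave 2 with the filters or trended variance, 3 with the GAPDH covariate, 5175 with weights, 0 to 12 over single omissions, and 0 with centring, the block, the stricter thresholds, the spike-in covariate or without replicates 2 and 5. The interaction, 0 calls by limma (2028 at an unadjusted p under 0.05), gave 1 with trended variance, quantile normalization or centring, 198 with weights and 0 to 2 over single omissions. Averaged over their probe sets, 6 named genes turned sign: Fads2 −0.036, Ndrg1 0.0091, Cnp 0.020, Hnrnpa2b1 0.053, Srsf2 −0.13 and Gad2 −0.35. Of the 145 named calls, 120 were lost with the spike-in covariate, 54 with the 9 arrays, 54 without replicates 2 and 5, 42 on probe set means, the 6 among them, 19 with the block, 15 with centring and 15 with the GAPDH covariate.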

Other observations

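Genes of striatal projection neurons had 5 rises and 1 fall in 19 (31.6% called, against 17.2% of all measured genes), with a median of 0.05 (log2), and 2 rises and 1 fall without SCA3 CCI-779 replicates 2 and 5. Drd2, the dopamine D2 receptor, rose by 1.12 ± 0.217 (SE, adjusted p = 0.00514; 0.0448 without replicates 2 and 5), and Adcy5, the striatal adenylyl cyclase, by 0.75 (0.00119; 0.0139), while a dimmer probe set of Adcy5 lay 0.07 lower (0.699). Meis2, a homeobox gene, fell by 0.52 (0.00143), with a dimmer probe set 0.17 higher.

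Of 39 lysosomal genes 5 rose and 4 fell (23.1% called, against 17.2% of all measured genes). Atp6ap2, an accessory protein of the proton pump, fell by 0.37 ± 0.0396 (adjusted p = 0.000102), and Asah1, acid ceramidase, by 0.43 (0.00303), while Atp6v0d1, a subunit of the pump, rose by 0.39 (0.000669). A dimmer probe set of Atp6ap2 lay 0.19 higher. All 3 genes passed without replicates 2 and 5.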
